A study of Rattus norvegicus with 24 samples.

Results

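The genes described here are the cytochrome P450 enzymes of families 1, 2 and 3 on a rat expression array, taken as every non-control probe whose gene symbol begins with Cyp, followed by 1, 2 or 3, a subfamily letter and a number. The rule found 44 genes in 16 subfamilies, measured by 57 probes, of 25885 genes or unnamed transcripts and 30367 probes in all. Liver RNA came from 24 male Wistar rats, with 8 rats in each of 3 diets, after 42 days. ChGENE rats received a standard semi-synthetic diet with 1% cholesterol and 5% freeze-dried kiwifruit of the cultivar Geneva (Actinidia arguta). ChHAYW rats received the same cholesterol diet with 5% freeze-dried kiwifruit of the cultivar Hayward (Actinidia deliciosa). Ch rats received the diet with 1% cholesterol alone, so every rat ate cholesterol and no rat on a diet without it was analysed here. No source used here states the age of the rats. Each rat had its own 1-colour Agilent array, and the question was whether either kiwifruit moved the expression of these enzymes in a liver loaded with cholesterol.

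Cytochrome P450 enzymes of these families sit in the endoplasmic reticulum and insert an oxygen atom into drugs, plant compounds, steroids and fatty acids, with electrons passed on by the reductase Por. Plant compounds and drugs can induce them through ligand-activated receptors: AhR acts mainly on Cyp1 genes, CAR (Nr1i3) mainly on Cyp2b genes and PXR (Nr1i2) mainly on Cyp3a genes. In the rat, several of them also depend on sex, since the pulsed growth hormone of males maintains Cyp2c11, Cyp2c13, Cyp2a2, Cyp3a2 and Cyp3a18 while Cyp2c12 belongs to the female liver. Some members have other main roles, such as Cyp2r1, which hydroxylates vitamin D, and the Cyp2j enzymes, which make epoxides of arachidonic acid.

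A level below is the log2 intensity of a gene's brightest probe minus the log2 75th percentile of all probes on the same array, so differences are on the log2 scale. The 75th percentile itself had a median of 675 intensity units in ChGENE (388 to 775), 731 in ChHAYW (409 to 1049) and 421 in Ch (188 to 653), and 0 spots were saturated. The 8 arrays of each diet lay on 1 slide of their own, so a difference of diet and a difference of slide cannot be told apart. All 6 measured hepatocyte markers were above background on every array. In each diet 1 pair of arrays was almost alike: ChGENE 4 and 5, ChHAYW 6 and 7, and Ch 1 and 2. Over 5667 well measured probes, the median absolute deviation of the log2 difference was 0.117 to 0.141 within these 3 pairs and 0.206 to 0.818 within the other 81 pairs of arrays of 1 diet, while repeated spots on a single array gave 0.0634 to 0.0832. The labels list all of them as separate biological replicates and they were kept as such, and the counts of members that passed and the medians are also given with every such pair averaged and counted as 1 rat (7 per diet). If they are not separate rats, the p-values for 8 rats are too small.

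None of the 44 genes passed the test in any comparison, which asked for a Benjamini-Hochberg adjusted p under 0.05 in limma over all probes and a fold change of at least 1.3. For ChGENE against Ch 0 members passed where 0.319% of all probes did, for ChHAYW against Ch 0 members passed where 0% did, and for ChGENE against ChHAYW 0 members passed where 0.00659% did. The members still lay to one side in ChGENE. Against Ch, 39 of 44 members (88.6%, against 66.1% of all probes) had a negative log2 fold change, with a median of −0.39 where the median of all probes was −0.16, except that scaling to the spike-in probes moved both medians up, to 0.07 for the members and 0.30 for all probes, and left 21 of 44 negative. Under either scaling 34 of 44 members lay below the median of all probes. Both scalings move all probes of an array equally, so this count cannot differ between them. It was 28 of 44 with the normexp background correction and 32 of 44 after quantile normalization. Against ChHAYW, 37 of 44 were negative (84.1%, against 50.9% of all probes) with a median of −0.28, where the median of all probes was −0.01. In ChHAYW against Ch, 29 of 44 were negative (65.9%, near the 66.6% of all probes) with a median of −0.14, and the median of all probes was −0.18; it turned positive under quantile normalization (0.05, all probes −0.01) and under spike-in scaling (0.51, all probes 0.47). In bulk liver, fewer cells of a type and less RNA per cell cannot be told apart. Counts over all 44 include the 15 members not above background on every array, among them Cyp1b1, whose values are those of background. The 3 comparisons share their groups, so these counts are not independent of each other.

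At an unadjusted p under 0.05 in limma with the same fold change, 17 members were lower in ChGENE than in Ch (38.6%, against 21.1% of all probes) and 0 were higher. Among the 29 members above background on all 24 arrays the count was 13 (44.8%, against 7.85% of the probes so measured). In ChGENE against ChHAYW the lower members numbered 12 of 44 (27.3%, against 2.85% of all probes) and 11 of the 29 (37.9%, against 3.55%). In ChHAYW against Ch they numbered 4 of 44 (9.09%, against 19.7%) and 2 of the 29 (6.9%, against 7.42%), with 1 further member, Cyp2r1, higher. The methods' t-test, adjusted over all probes, passed 2 members in ChGENE against Ch, Cyp2c22 and Cyp2c6v1 (beside 0.807% of all probes), and 0 in the other 2 comparisons. In no comparison were the 8 values of one diet all beyond the 8 of the other for any member. This held for 0.692% of all probes in ChGENE against Ch, 0.0593% in ChHAYW against Ch and 0.0922% in ChGENE against ChHAYW. The count in ChGENE against Ch was close to the threshold and moved with the setting: 10 members passed, all lower, with median scaling (beside 15.2% of all probes), 17 with array weights (12.1%), 11 without the rat Ch 3 (16.3%) and 7 without ChGENE 2 (10.3%). Each of these sets included Cyp1b1, which was above background on 0 arrays. All but the last also included Cyp1a1, which was near background on most arrays. With the near-alike arrays averaged, 0 members and 0 probes passed in all 3 comparisons, and the members' medians were −0.45 for ChGENE against Ch, −0.13 for ChHAYW against Ch and −0.21 for ChGENE against ChHAYW.

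**Figure D1:**
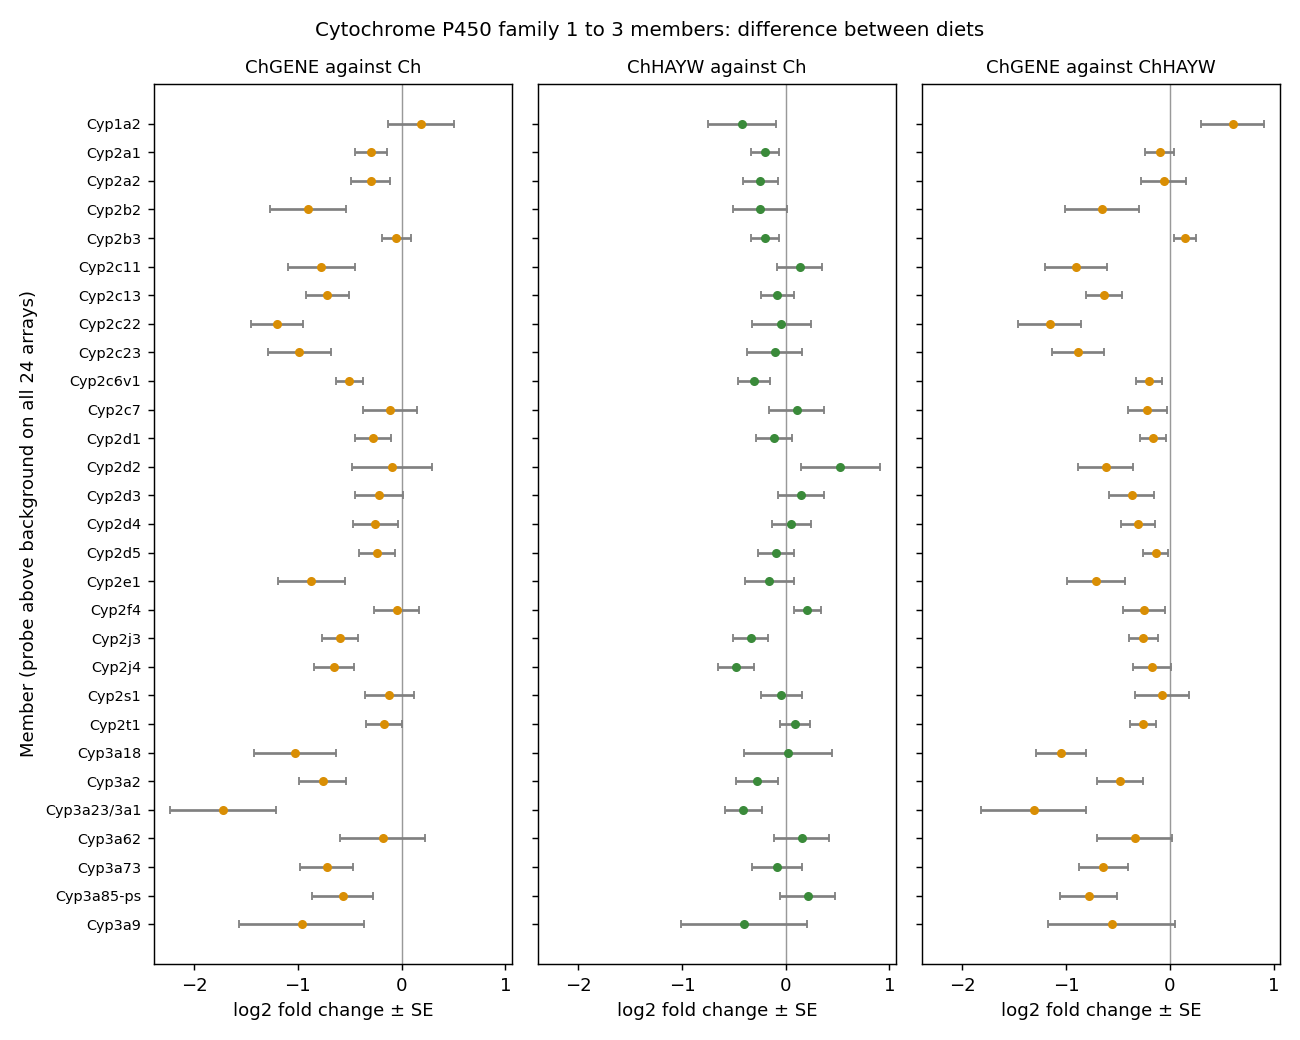
Log2 fold change with its standard error (x axis) of the 29 members above background on all 24 arrays (y axis), for ChGENE against Ch, ChHAYW against Ch and ChGENE against ChHAYW, with 8 arrays per diet. In ChGENE against Ch 28 of 29 points lie left of 0, down to −1.72 for Cyp3a23/3a1, while scaling to the spike-in probes would move the points of this panel right (median of all 44 members 0.07 in place of −0.39).

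The Cyp3a subfamily, the main drug-oxidising enzymes of the liver, held the member with the lowest log2 fold change of the 29 well measured ones in ChGENE against Ch. All 7 Cyp3a members were above background on every array, and their median log2 fold change was −0.76 in ChGENE against Ch (−1.72 to −0.18), −0.08 in ChHAYW against Ch (−0.41 to 0.21) and −0.64 in ChGENE against ChHAYW (−1.31 to −0.34). Scaled to the spike-in probes these medians were −0.30, 0.57 and −0.83, and after quantile normalization −0.45, 0.14 and −0.59, so the direction turned only in ChHAYW against Ch. Cyp3a23/3a1, the PXR-induced member that RefSeq now calls Cyp3a23-3a1, ranged from 1.97 to 5.51 in ChGENE with a median of 5.15, from 5.34 to 6.16 in ChHAYW with a median of 5.73, and from 5.45 to 6.62 in Ch with a median of 6.27. Of the 8 ChGENE arrays, 6 lay below the lowest Ch array. The log2 fold change was −1.72 in ChGENE against Ch (standard error 0.508, limma adjusted p = 0.0608), which is a 3.3-fold lower level, and −0.41 ± 0.18 (± standard error) in ChHAYW against Ch, with an adjusted p of 0.172. The near-alike arrays ChGENE 4 and 5 stood far from the rest at 2.03 and 1.97, while the other 6 ChGENE arrays lay between 5.07 and 5.51. Without both of them the log2 fold change against Ch was −0.90 (standard error 0.179, adjusted p = 0.0794).

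The promoters of 39 members were found in RefSeq's build GRCr8. A direct repeat of AGTTCA with 3 bases of any kind between the copies, a layout that PXR can bind, was searched on both strands in the 250 bases before and 50 after each start. It occurred in 2 of 33469 promoters of all genes (0.00598%), and both were members: Cyp3a23/3a1 and Cyp3a2. The 250 bases upstream of their starts, which lie near each other on chromosome 12, are shown because both genes share this element; capitals mark it, and it reads here as its reverse complement. Aligned at the element, the sequences had the same base at 165 of 237 positions.
Cyp3a23/3a1, chr12:14398804-14399053, minus strand: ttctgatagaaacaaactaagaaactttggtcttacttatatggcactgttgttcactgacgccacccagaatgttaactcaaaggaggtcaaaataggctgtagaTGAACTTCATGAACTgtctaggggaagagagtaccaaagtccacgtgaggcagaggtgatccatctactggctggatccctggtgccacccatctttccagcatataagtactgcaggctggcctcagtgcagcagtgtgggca
Cyp3a2, chr12:14343858-14344107, minus strand: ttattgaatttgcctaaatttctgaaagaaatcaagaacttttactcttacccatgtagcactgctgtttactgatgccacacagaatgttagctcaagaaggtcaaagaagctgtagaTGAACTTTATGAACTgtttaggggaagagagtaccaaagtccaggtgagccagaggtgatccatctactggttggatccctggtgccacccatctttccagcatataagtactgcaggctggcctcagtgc
The element began 144 bases before the start of Cyp3a23/3a1 and 131 bases before that of Cyp3a2. The repeated unit, AGTTCA, was found on either strand in 14.5% of all promoters and in 13 of the 45 promoters of these members. Beside the 2 genes above, these were the promoters of Cyp3a18, Cyp3a62, Cyp3a73 and Cyp3a9. Outside Cyp3a they were those of Cyp2c12, Cyp2c13, Cyp2c22, Cyp2g1, Cyp2j3, Cyp2j4 and Cyp2w1. The AhR core GCGTG and the STAT-type motif TTCNNNGAA were searched too. They occurred in 7 and 6 of the 45 member promoters, beside 29.7% and 8.87% of all promoters. A match is a description of the letters and not a bound site. The direct repeat was searched only in the spelling that Cyp3a23/3a1 and Cyp3a2 carry, so its share of all promoters was not a test.

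Cyp3a2, a male-predominant testosterone hydroxylase, ranged from 6.71 to 8.07 in ChGENE (median 7.58), from 7.29 to 8.51 in ChHAYW (median 7.83) and from 7.39 to 8.65 in Ch (median 8.37). All 8 ChGENE values lay below the Ch median, yet 5 of them overlapped the Ch range. Its log2 fold change was −0.76 in ChGENE against Ch (standard error 0.227, limma adjusted p = 0.0608) and −0.48 in ChGENE against ChHAYW (adjusted p = 0.589). Cyp3a18, also male-predominant, was the member with the smallest p between the 2 kiwifruit diets: it ranged from 3.78 to 4.94 in ChGENE (median 4.29), from 4.45 to 6.18 in ChHAYW (median 5.31) and from 3.58 to 6.39 in Ch (median 5.84). Its log2 fold change was −1.05 in ChGENE against ChHAYW (standard error 0.237, adjusted p = 0.17) and −1.03 in ChGENE against Ch, where the Ch rats themselves were widely spread (SD 1.15, adjusted p = 0.109). Without ChGENE 4 and 5, Cyp3a2 had −0.24 in ChGENE against ChHAYW. Cyp3a73 had −0.72 in ChGENE against Ch (adjusted p = 0.0844) and −0.64 in ChGENE against ChHAYW (adjusted p = 0.476; −0.41 without ChGENE 4 and 5), and the pseudogene Cyp3a85-ps had −0.78 in ChGENE against ChHAYW (adjusted p = 0.451). The 60-base probe of Cyp3a62 had the same base as that of Cyp3a73 at 42 of 59 aligned positions and as that of Cyp3a18 at 41 of 52. Cyp3a62, an intestinal and hepatic member, averaged 0.86 ± 1.05 in ChGENE, 1.20 ± 0.35 in ChHAYW and 1.04 ± 0.70 in Ch (SD, n = 8 each), and in ChGENE 4 and 5 it was at 2.39 and 2.37 where the other ChGENE arrays reached at most 0.84. Those 2 arrays were thus the highest of their diet for Cyp3a62 and the lowest for Cyp3a23/3a1. Cyp3a9, which is more abundant in female rats, averaged −1.35 ± 1.34 in ChGENE, −0.80 ± 1.33 in ChHAYW and −0.39 ± 1.32 in Ch, so that its spread among rats exceeded any difference between diets.

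**Figure D2:**
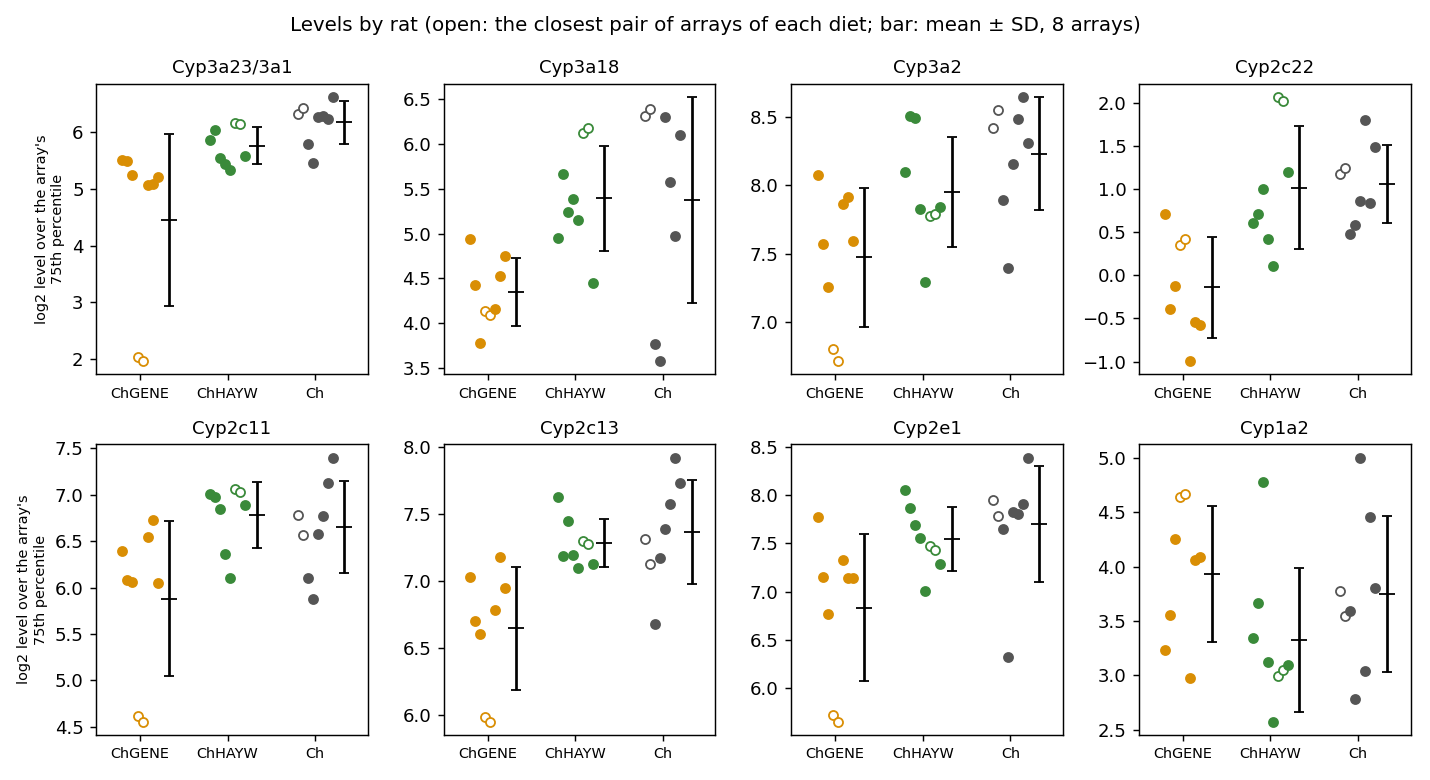
Level of 8 members in each rat (y axis, log2 over the array's 75th percentile) for ChGENE, ChHAYW and Ch (x axis), with the mean and SD of 8 arrays beside the points; open points are the near-alike arrays of each diet. For Cyp3a23/3a1 the 2 open ChGENE points lie at 2.03 and 1.97, below every other array, and the same 2 arrays are the lowest of ChGENE for Cyp2c11, Cyp2c13, Cyp2e1 and Cyp3a2 but the highest for Cyp1a2.

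The Cyp2c subfamily, which hydroxylates steroids and makes epoxides of fatty acids, was the largest with 9 members, of which 6 were above background on all arrays. Its median log2 fold change was −0.72 in ChGENE against Ch, with 9 of 9 members negative, −0.08 in ChHAYW against Ch with 6 of 9 negative, and −0.63 in ChGENE against ChHAYW with 8 of 9 negative; scaled to the spike-in probes these were −0.26, 0.57 and −0.82. Cyp2c22, whose P450 is linked to retinoic acid oxidation in the rat, had the smallest p of all members in ChGENE against Ch. It ranged from −0.99 to 0.71 in ChGENE (median −0.25), from 0.11 to 2.07 in ChHAYW (median 0.86) and from 0.48 to 1.80 in Ch (median 1.02). Of the 8 ChGENE arrays, 7 lay below the lowest Ch array, and the exception was ChGENE 1. Its log2 fold change was −1.20 in ChGENE against Ch (standard error 0.252, limma adjusted p = 0.052), −0.04 in ChHAYW against Ch (adjusted p = 0.934) and −1.16 in ChGENE against ChHAYW (adjusted p = 0.241). With ChGENE 4 and 5 left out it was −1.38 in ChGENE against Ch (adjusted p = 0.0754).

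Cyp2c6v1, a constitutive drug-metabolising member, had the lowest SD of the 29 well measured members in ChGENE. It ranged from 6.90 to 7.28 in ChGENE (median 7.10), from 6.92 to 7.74 in ChHAYW (median 7.25) and from 7.24 to 7.99 in Ch (median 7.59). Here too 7 of the 8 ChGENE arrays lay below the lowest Ch array. The log2 fold change was −0.50 in ChGENE against Ch (standard error 0.132, adjusted p = 0.0608) and −0.30 in ChHAYW against Ch (adjusted p = 0.225), and its second probe gave −0.78 and −0.69 in these comparisons (adjusted p = 0.0608 and 0.11). Cyp2c13, a male-specific member, ranged from 5.95 to 7.18 in ChGENE (median 6.74), from 7.10 to 7.63 in ChHAYW (median 7.24) and from 6.68 to 7.92 in Ch (median 7.35). Its log2 fold change was −0.72 in ChGENE against Ch (standard error 0.21, adjusted p = 0.0608) and −0.63 in ChGENE against ChHAYW (standard error 0.174, adjusted p = 0.26), where 7 of 8 ChGENE arrays were below the lowest ChHAYW array and the value without ChGENE 4 and 5 was −0.41. Cyp2c11, the most abundant male-specific P450 in textbook accounts of rat liver, ranged from 4.56 to 6.72 in ChGENE (median 6.07), from 6.11 to 7.06 in ChHAYW (median 6.93) and from 5.88 to 7.40 in Ch (median 6.67). The log2 fold change was −0.77 in ChGENE against Ch (adjusted p = 0.134) and −0.91 in ChGENE against ChHAYW (adjusted p = 0.407). The values of ChGENE 4 and 5 were 4.61 and 4.56, and without them the log2 fold change was −0.34 against Ch and −0.47 against ChHAYW.

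Cyp2c23, an arachidonic acid epoxygenase, ranged from 5.65 to 7.35 in ChGENE (median 6.21), from 6.63 to 7.94 in ChHAYW (median 7.20) and from 5.75 to 7.88 in Ch (median 7.51), giving a log2 fold change of −0.99 in ChGENE against Ch (standard error 0.305, adjusted p = 0.0608) and −0.88 in ChGENE against ChHAYW (adjusted p = 0.284). The low end of Ch was 1 array, Ch 4, the dimmest of the 24 (75th percentile 188, 49.7% of probes above background). The next lowest Ch value was 7.42, and without Ch 4 the log2 fold change was −1.22 (limma adjusted p = 0.0486). Cyp2c7 averaged 7.21 ± 0.34 in ChGENE, 7.42 ± 0.41 in ChHAYW and 7.32 ± 0.68 in Ch, and differed by less than its spread in every comparison. The female-specific Cyp2c12 was above background on 22 of 24 arrays of these males and ranged from −2.69 to 0.07 in ChGENE, from −3.85 to 1.12 in ChHAYW and from −4.05 to 0.95 in Ch. Cyp2c24, above background on 12 arrays, had a spread of 1.93 in ChGENE, 1.95 in ChHAYW and 1.90 in Ch (SD, n = 8 each), and Cyp2c79 averaged between −3.56 and −3.35 in the 3 diets.

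**Figure D3:**
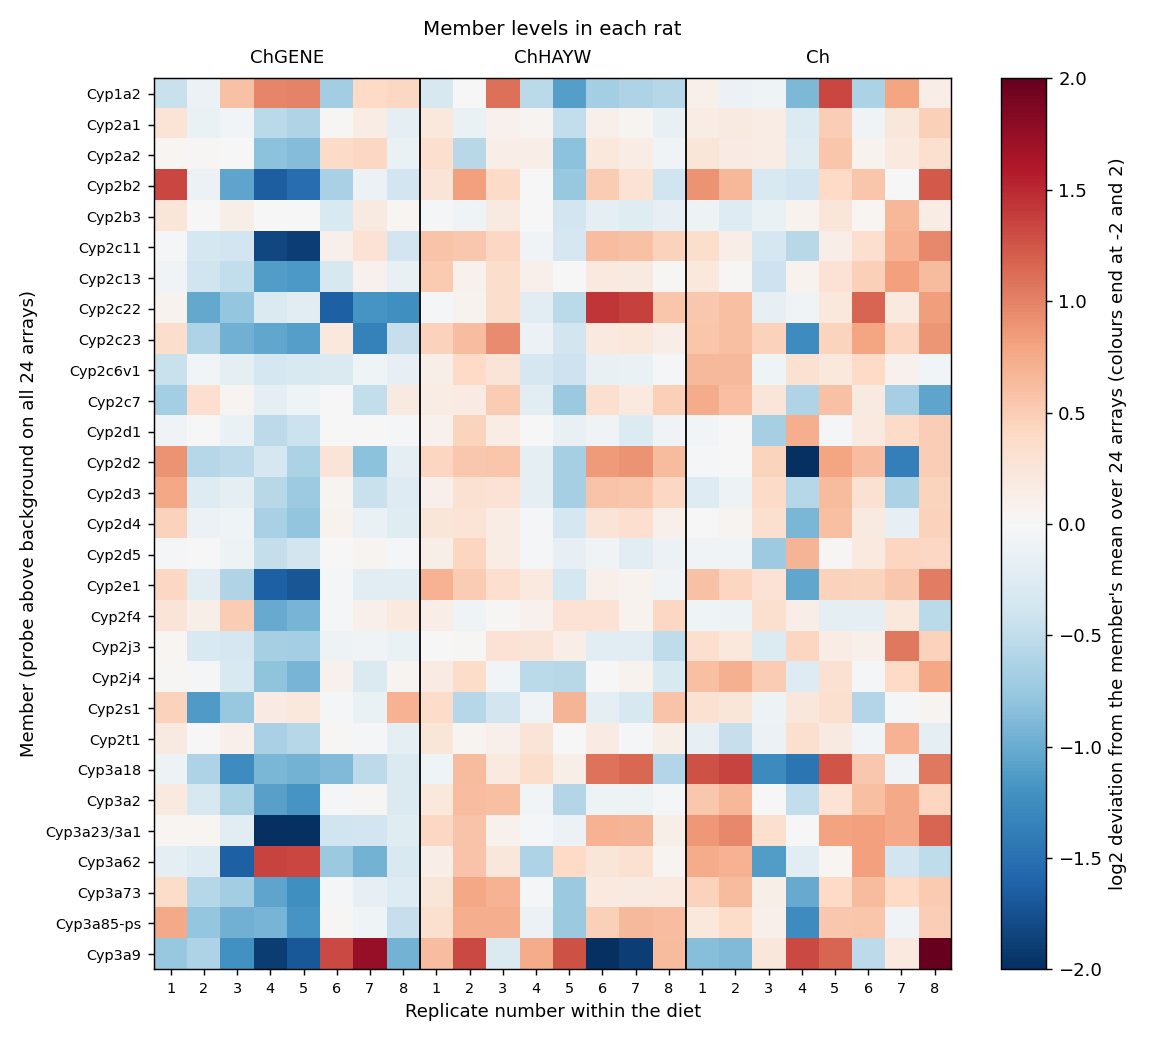
Deviation of each array (x axis, replicate number within ChGENE, ChHAYW and Ch) from the member's mean over 24 arrays, on the log2 scale, for the 29 members above background on all arrays (y axis). ChGENE 4 and 5, ChHAYW 5 and Ch 4 show as mostly blue columns, with the lowest value of their diet for 19 (ChGENE 4 or 5), 20 and 15 of the 29 members.

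Cyp2e1, which oxidises ethanol and other small molecules around the central vein, ranged from 5.65 to 7.78 in ChGENE (median 7.14), from 7.00 to 8.06 in ChHAYW (median 7.51) and from 6.32 to 8.39 in Ch (median 7.82). Its log2 fold change was −0.87 in ChGENE against Ch (standard error 0.321, limma adjusted p = 0.094) and −0.71 in ChGENE against ChHAYW (adjusted p = 0.504). Without ChGENE 4 and 5 these were −0.49 and −0.33. The lowest Ch array was again Ch 4 at 6.32, and the others were at 7.65 or above. The CAR-induced Cyp2b2 ranged from 1.05 to 4.03 in ChGENE (median 2.18), from 1.94 to 3.52 in ChHAYW (median 2.96) and from 2.32 to 3.92 in Ch (median 3.17), giving a log2 fold change of −0.90 in ChGENE against Ch (standard error 0.365, adjusted p = 0.123). ChGENE 4 and 5 were the lowest of all arrays at 1.05 and 1.18, and without them it was −0.55 (adjusted p = 0.35). Its second probe gave −0.45, and the array's annotation also lists transcripts of Cyp2b1 for this gene, so both paralogs may be measured together. The constitutive Cyp2b3 was among the most even members, at 6.83 ± 0.16 in ChGENE, 6.69 ± 0.17 in ChHAYW and 6.88 ± 0.28 in Ch. Of the other Cyp2b members, Cyp2b15 was above background on 21 of 24 arrays, Cyp2b21 on 14 and Cyp2b12 on 8, and none had an adjusted p under 0.0957 in any comparison.

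Family 1, the targets of AhR, differed among its members. Cyp1a2, the hepatic caffeine oxidase, ranged from 2.97 to 4.67 in ChGENE (median 4.07), from 2.57 to 4.77 in ChHAYW (median 3.11) and from 2.78 to 5.00 in Ch (median 3.69). Its ranges overlapped almost fully and its adjusted p was 0.747 in ChGENE against Ch, 0.41 in ChHAYW against Ch and 0.63 in ChGENE against ChHAYW. Cyp1a1, which is low in an uninduced liver, was above background on 2 ChGENE, 4 ChHAYW and 4 Ch arrays. It ranged from −6.95 to −3.73 in ChGENE (median −6.21), from −6.27 to −2.96 in ChHAYW (median −4.80) and from −5.57 to −2.72 in Ch (median −3.95), giving a log2 fold change of −1.78 in ChGENE against Ch (standard error 0.539, adjusted p = 0.0608). The 2 ChGENE arrays with signal were ChGENE 4 and 5, at −3.77 and −3.73, so most ChGENE values are those of background and the size of the difference is uncertain. Cyp1b1, an AhR target of other tissues, was not well above background on any of the 24 arrays, and no difference is read from it.

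The well measured Cyp2j epoxygenases were on the negative side for both kiwifruit diets, with signs that turned in ChHAYW against Ch under spike-in scaling (0.17 for Cyp2j4 and 0.31 for Cyp2j3). Cyp2j4 ranged from 3.94 to 4.95 in ChGENE (median 4.70), from 4.32 to 5.24 in ChHAYW (median 4.84) and from 4.61 to 5.65 in Ch (median 5.31). Its log2 fold change was −0.65 in ChGENE against Ch (standard error 0.191, limma adjusted p = 0.0608) and −0.48 ± 0.178 (± standard error) in ChHAYW against Ch with an adjusted p of 0.12, where it had the smallest p of the well measured members. Cyp2j3 gave −0.59 in ChGENE against Ch (standard error 0.172, adjusted p = 0.0608) and −0.34 in ChHAYW against Ch (adjusted p = 0.225), and the second probes of both genes were also negative in both. Cyp2j10 and Cyp2j16 were above background on 7 arrays and on 1 array.

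In the Cyp2a and Cyp2d subfamilies 0 members passed. Cyp2a1 averaged 4.15 ± 0.31 in ChGENE, 4.25 ± 0.22 in ChHAYW and 4.45 ± 0.26 in Ch, and the male-predominant Cyp2a2 averaged 4.47 ± 0.48 in ChGENE, 4.53 ± 0.41 in ChHAYW and 4.77 ± 0.22 in Ch (SD, n = 8 each). Cyp2d1, a counterpart of the human debrisoquine hydroxylase, averaged 7.71 ± 0.21 in ChGENE, 7.87 ± 0.22 in ChHAYW and 7.98 ± 0.43 in Ch. Cyp2d5 followed at 7.80 ± 0.19 in ChGENE, 7.94 ± 0.21 in ChHAYW and 8.04 ± 0.43 in Ch. The probes show how far such paralogs can be told apart, so a 30-base stretch of each 60-base probe is given for these 4 genes, with the bases that differ from the partner in capitals. Each stretch was chosen to hold the most differing bases, and the coordinates are those of the whole probe.
Cyp2d1, chr7:120769703-120769762 (rn4): gctgagccacgtttaataaaccagtcttTT
Cyp2d5, chr7:120760436-120760495 (rn4): gctgagccacgtttaataaaccagtcttGA
Cyp2a1, chr1:82019991-82020050 (rn4): gacatcaacgagtCccccaAAcccTtGggg
Cyp2a2, chr1:82063430-82063489 (rn4): gacatcaacgagtAccccaGTcccAtAggg
Over the whole aligned length, the Cyp2d1 and Cyp2d5 probes had the same base at 56 of 58 positions and the Cyp2a1 and Cyp2a2 probes at 44 of 50. The values of Cyp2d1 and Cyp2d5 are therefore uncertain as values of single genes. The remaining Cyp2d members were more variable: Cyp2d2 averaged 4.04 ± 0.56 in ChGENE, 4.65 ± 0.54 in ChHAYW and 4.13 ± 1.03 in Ch, giving a log2 fold change of 0.53 ± 0.381 (± standard error) in ChHAYW against Ch with an adjusted p of 0.384 and of −0.62 ± 0.262 in ChGENE against ChHAYW with an adjusted p of 0.545, while Cyp2d3 and Cyp2d4 had adjusted p-values of 0.479 or more in every comparison.

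Several subfamilies had 1 member each, and most of these were dim. Cyp2r1, the vitamin D hydroxylase, was the only member higher in ChHAYW at an unadjusted p under 0.05: it ranged from −3.44 to −2.32 in ChHAYW (median −2.65) and from −5.35 to −2.68 in Ch (median −3.09), a log2 fold change of 0.88 (standard error 0.353, limma adjusted p = 0.14). The Ch values below background were those of Ch 4 and 7, at −5.35 and −5.00. These arrays had the lowest 75th percentiles of all, 188 and 335. Ch 6 at −3.60 was also below the lowest ChHAYW array, and the other 5 Ch arrays lay within the ChHAYW range. Cyp2f4, a member best known from the lung, averaged 3.15 ± 0.56 in ChGENE, 3.40 ± 0.16 in ChHAYW and 3.20 ± 0.27 in Ch. Cyp2t1 averaged 1.44 ± 0.31 in ChGENE, 1.70 ± 0.10 in ChHAYW and 1.61 ± 0.36 in Ch, and Cyp2s1 averaged −2.30 ± 0.61 in ChGENE, −2.22 ± 0.46 in ChHAYW and −2.18 ± 0.30 in Ch. Cyp2u1 was above background on 11 arrays and the olfactory Cyp2g1 on 7. Cyp2a3, of the nasal mucosa and lung, was above background on 2 Ch arrays and on no array of the kiwifruit diets, too few for a fold. Cyp2w1 was above background on 2 ChGENE arrays, 0 ChHAYW arrays and 1 Ch array.

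The genes that control and serve these enzymes were read from lists of 19 regulators, 9 electron donors and heme enzymes, 5 AhR targets and 10 CAR and PXR targets outside the families. Of the 19 regulators 0 passed in any comparison, and their median log2 fold change was −0.10 in ChGENE against Ch, −0.04 in ChHAYW against Ch and 0.07 in ChGENE against ChHAYW. Cebpb, a liver-enriched factor, had −0.86 in ChGENE against Ch and Stat5b, which carries the growth hormone signal, had 0.95 (limma adjusted p = 0.0608 for both). Both had the same direction in ChHAYW against Ch, with −0.92 for Cebpb and 0.62 for Stat5b (limma adjusted p = 0.11 and 0.116). The receptors, named after their values were seen, gave in ChGENE against Ch −0.44 for Ahr, −0.28 for the PXR gene Nr1i2 and −0.72 for the CAR gene Nr1i3 (adjusted p = 0.239, 0.582 and 0.237).

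Of the 9 electron donors and heme enzymes 0 passed, with medians of −0.55 in ChGENE against Ch, 0.02 in ChHAYW against Ch and −0.26 in ChGENE against ChHAYW. Alas1, the rate-limiting enzyme of heme synthesis, had −1.04 in ChGENE against Ch (adjusted p = 0.0608) and Pgrmc1, a heme-binding partner of P450 enzymes, had −0.64 (adjusted p = 0.0602). Of the 5 AhR targets 1 passed, in ChGENE against Ch, where 0.319% of all probes did. This was Ugt1a6, which conjugates phenols, with a log2 fold change of −0.88 (limma adjusted p = 0.0448). Its levels were 5.97 to 7.19 in ChGENE and 7.27 to 7.76 in Ch. The near-alike ChGENE 4 and 5 were lowest, at 6.00 and 5.97, and the other ChGENE arrays were at 6.53 or above. With the near-alike arrays averaged, 0 probes passed. Of the 9 measured CAR and PXR targets 0 passed, with medians of −0.59 in ChGENE against Ch, −0.12 in ChHAYW against Ch and −0.27 in ChGENE against ChHAYW. Gsta2, a glutathione transferase, had −1.18 (adjusted p = 0.0786) and Aldh1a1, a retinal dehydrogenase, had −1.12 (adjusted p = 0.0623) in ChGENE against Ch. For Aldh1a1 the near-alike ChGENE 4 and 5 were at 3.61 and 3.71, where the other ChGENE arrays were at 5.75 or above.

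Position in the lobule and sex were read in the same way. Of 8 pericentral genes outside the families 0 passed, with medians of −0.25 in ChGENE against Ch, −0.56 in ChHAYW against Ch and 0.09 in ChGENE against ChHAYW. Of 8 periportal genes 0 passed, with medians of −0.33, −0.15 and −0.21 in the same comparisons. Of 6 male-predominant genes outside the families 0 passed, with medians of −0.68, −0.04 and −0.48, and Obp3, a male urinary protein, had −1.03 in ChGENE against Ch (adjusted p = 0.0952). The near-alike ChGENE 4 and 5 were at 6.50 and 6.59 for Obp3, where the other ChGENE arrays were at 7.95 or above. The value of Obp3 thus rests in part on these 2 arrays.

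Markers of other liver cells were read beside the members. In ChGENE 6 of 6 macrophage markers were above background on all arrays, in ChHAYW 6 of 6 and in Ch 5 of 6, none was absent, and 0 passed the test. Their summed level ranged from 18.5 to 79.3 in ChGENE, from 21.9 to 63.9 in ChHAYW and from 19.9 to 46.2 in Ch, in multiples of the array's 75th percentile, and their median log2 fold change was 0.52 in ChGENE against Ch. The summed level of the 6 hepatocyte markers ranged from 1787 to 2898 in ChGENE, from 1400 to 2865 in ChHAYW and from 1911 to 3776 in Ch, and their median log2 fold change was −0.47 in ChGENE against Ch and −0.51 in ChHAYW against Ch. The 5 markers of sinusoidal endothelium had a median of 0.48 in ChGENE against Ch, with summed levels of 24.3 to 37.6 in ChGENE and 20.2 to 42.4 in Ch. Of these 5, 2 had a negative log2 fold change, and the summed level of all 5 had a median of 29.7 in ChGENE and 32.3 in Ch. Of 3 measured markers of small intestine, 2 were above background on all arrays and 1 on none, with summed levels of 2.59 to 14.3 in ChGENE, 1.85 to 3.43 in ChHAYW and 1.05 to 6.54 in Ch; Fabp2, a fatty acid binding protein of enterocytes, had 1.57 in ChGENE against Ch (adjusted p = 0.0608) and 1.64 in ChGENE against ChHAYW (adjusted p = 0.0596). The part of all these markers in the differences of the members was not tested. The macrophage sum of ChGENE 8 was 69.6, with Cyp3a23/3a1 at 5.21 and Cyp2c11 at 6.05. Only ChGENE 4 and 5 had higher macrophage sums, 78.6 and 79.3, beside the lowest levels of Cyp3a23/3a1 and Cyp2c11. In the same 2 arrays Gsta2 was at 3.97 and 4.02 where the other ChGENE arrays were at 5.93 or above, Mup5, a male urinary protein, was at 5.16 and 5.03 where the others were at 6.79 or above, and Hmox1, which breaks down heme, was at 3.24 and 3.08 where the others were at 1.57 or below. Hmox1 and Mup5 were named after their values were seen.

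The members varied more among rats of 1 diet than most genes did. The median SD of the 29 well measured members was 0.509 in ChGENE, 0.353 in ChHAYW and 0.454 in Ch, beside 0.289, 0.268 and 0.34 for all 14045 probes so measured. The widest was Cyp3a23/3a1 in ChGENE (SD 1.52) and Cyp3a9 in ChHAYW and Ch (SD 1.33 and 1.32), and the narrowest Cyp2c6v1 in ChGENE (0.132), Cyp2t1 in ChHAYW (0.102) and Cyp2a2 in Ch (0.224).

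Within a diet, 4 pairs of members were followed from rat to rat, which made 12 relations, with exact two-sided permutation tests over all pairings and p-values adjusted over the 12. The induced Cyp2b2 and Cyp3a23/3a1 were correlated in Ch, with r = 0.90 (exact permutation p = 0.000347, adjusted p = 0.00417) and rho = 0.98 (p = 0.000397) over 8 arrays, and r = 0.85 without the 2 rats farthest from the median of Cyp2b2. With the near-alike arrays averaged the relation in Ch was r = 0.91 over 7 values (adjusted permutation p = 0.0167). In ChGENE r was 0.73 (exact permutation p = 0.032) and in ChHAYW 0.75 (exact permutation p = 0.0329), with an adjusted p of 0.0657 for both, and over 7 values neither passed (adjusted permutation p = 0.214 and 0.115). The male-predominant Cyp2c11 and Cyp3a2 had r = 0.94 in ChGENE (exact permutation p = 0.00129, adjusted p = 0.00774, rho = 0.86), and r = 0.77 without the 2 farthest arrays. Over 7 values r was 0.91 (adjusted permutation p = 0.0333), while rho was 0.79 and did not pass (adjusted permutation p = 0.096). In Ch r was 0.78 (exact permutation p = 0.0203, adjusted p = 0.0608). In ChHAYW r was 0.57 (exact permutation p = 0.137), with rho = 0.02 and r = −0.52 without the 2 farthest arrays.

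Cyp1a2 and Cyp2e1, both enzymes of the central zone, ran in opposite directions in ChGENE, with r = −0.85 (exact permutation p = 0.00794, adjusted p = 0.0317), rho = −0.95 (p = 0.00114) and r = −0.88 without the 2 arrays farthest from the median of Cyp1a2. Over 7 values r was −0.81 (adjusted permutation p = 0.054) and rho passed with an adjusted permutation p of 0.0405. In ChHAYW r was 0.56 (exact permutation p = 0.155, rho = 0.81) and in Ch 0.53 (p = 0.188); whether the relation differed between diets was not tested. Cyp1a1 was above background on only 2 ChGENE, 4 ChHAYW and 4 Ch arrays, so nothing is read from its relation with Cyp1a2, which had r = 0.73 in ChGENE (exact permutation p = 0.0436, adjusted p = 0.0747), 0.60 in ChHAYW and 0.25 in Ch, and 0.27, −0.38 and 0.06 without the 2 arrays farthest from the median of Cyp1a1.

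**Figure D4:**
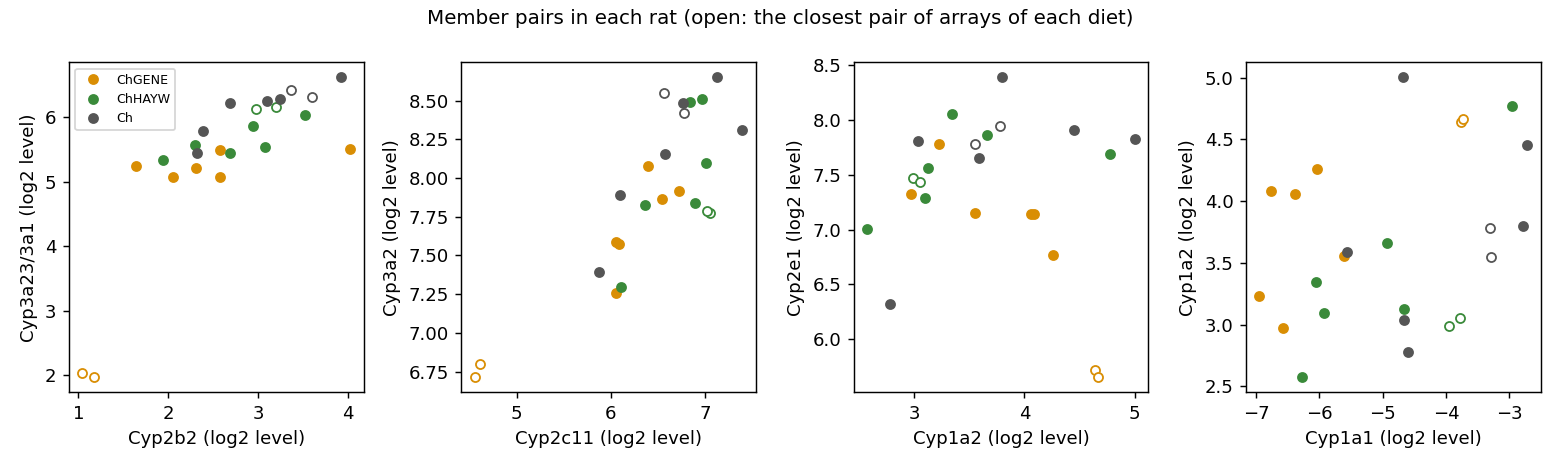
Levels of 4 pairs of members in each rat (both axes, log2 over the array's 75th percentile), coloured by diet (ChGENE, ChHAYW, Ch), with the near-alike arrays as open points. Cyp2b2 and Cyp3a23/3a1 climb together in Ch (r = 0.90), and Cyp2e1 falls as Cyp1a2 climbs in ChGENE (r = −0.85) but not in ChHAYW or Ch.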

How the data were processed

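The authors hybridised liver RNA of each rat to an Agilent SurePrint G3 Rat array and extracted spot values with Feature Extraction, which corrects the background and a spatial trend. The deposited intensities (processed signal, mean signal and background median) are on a linear scale, not scaled between arrays. The deposited value table held the same intensities, with 0 of 1511424 spots differing. Spots marked as outliers were left out, spots of a probe averaged on the log2 scale, and each array's 75th percentile subtracted. For each gene the probe with the highest mean was used; a probe was above background on an array where at least 0.5 of its spots were. Comparisons used limma 3.58.1 (lmFit and eBayes, R 4.3.3) on the 16 arrays of 2 diets over 30367 probes, with no filter on dim probes, and the Benjamini-Hochberg adjustment. The methods' t-test was an alternative. The fit was checked on simulated data. Correlations used SciPy 1.17.1 and NumPy 2.4.6.

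Named members are those that passed, the 10 with the smallest p in each comparison among members above background on all arrays of 1 diet, and 23 with a textbook role; all others were also accounted for. The members, the gene lists and these rules were chosen with earlier results of these data known. Alternatives were the background correction, the scaling, a dim-probe filter, array weights, the replicate number as a block, and each rat left out. Averaging the near-alike arrays and leaving out ChGENE 4 and 5 were chosen after seeing the data. RefSeq names (GRCr8) were found for 42 of 44 members, all but Cyp2c79 and Cyp3a85-ps. Probe coordinates are those of the array files (rn4).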

Additional observations from a re-analysis of the deposited data

Results flagged for a closer look

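Among 95 sets of 8 arrays (a member above background on all arrays of a diet), 7 had 1 array far from the others by Dixon's test, which chance does in about 1 of 20 sets. The array Ch 4, which had the lowest 75th percentile of all arrays, gave 4 of the 7. It was at 5.75 for Cyp2c23 where the next lowest Ch array was at 7.42, at 6.32 for Cyp2e1 where the next was at 7.65, at 5.83 for Cyp3a73 where the next was at 6.96, and at 3.50 for Cyp3a85-ps where the next was at 4.69. The others were ChGENE 6 for Cyp2b3 (6.50, next 6.79), ChHAYW 4 for Cyp3a62 (0.42, highest 1.61) and Ch 6 for Cyp2s1 (−2.82, next −2.34). The near-alike arrays ChGENE 4 and 5 cannot be found by this test, since each lies beside the other. Without Ch 4, ChGENE against Ch passed 1 member, Cyp2c23 (log2 fold change −1.22, limma adjusted p = 0.0486), beside 0.263% of all probes.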

How the results depend on the processing

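For ChGENE against Ch, 15 members passed with the normexp background correction, 10 with median scaling, 10 with all 24 arrays in 1 fit, 17 with array weights, 2 with the methods' t-test and 1 (Cyp2c22) with only probes above background on all arrays of a diet; all of them were lower in ChGENE. Over all probes the same settings passed 33.6%, 15.2%, 9.43%, 12.1%, 0.807% and 0.936% of those tested. Cyp1a1 and Cyp1b1 were among the members that passed with normexp, median scaling, the single fit and array weights. The normexp calls also held dim members such as Cyp2a3 and Cyp2g1. Such calls say nothing of the expression of these dim members. Leaving out 1 rat passed 0 to 11 members: 11 without Ch 3 (16.3% of all probes), 7 without ChGENE 2 (10.3%), and 1 without ChGENE 1, Ch 4 or Ch 5 (0.112%, 0.263% and 1.02%). For ChHAYW against Ch, 10 members passed with normexp (37.8% of all probes), 8 with array weights (18.8%; 7 lower and 1 higher) and 1 with median scaling (10.7%), and leaving out 1 rat passed 0 to 1 (without Ch 3 or ChHAYW 3, 12.1% and 15.1%). The single member in these was Cyp1b1, above background on 0 arrays, and the normexp calls also include dim members such as Cyp2a3, Cyp2j16 and Cyp2w1, so these counts say nothing of their expression. For ChGENE against ChHAYW 0 members passed in limma and in the t-test under every alternative run. The causes were not tested. Several calls lie near the threshold, since 9 members shared an adjusted p of 0.0608 in ChGENE against Ch.

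The members' median log2 fold change was 0.067 in ChGENE against Ch and 0.51 in ChHAYW against Ch under spike-in scaling. In ChHAYW against Ch the sign also turned for Cyp2j4 (0.17), Cyp3a23/3a1 (0.24), Cyp2c6v1 (0.35), Cyp2j3 (0.31), Cyp2a1 (0.45), Cyp2b3 (0.45) and Cyp2a2 (0.41) under spike-in scaling, and for Cyp2b3 (0.0505) under quantile normalization. Leaving out 1 rat moved the members' median between −0.50 and −0.34 in ChGENE against Ch, −0.25 and −0.06 in ChHAYW against Ch, and −0.30 and −0.22 in ChGENE against ChHAYW. The 15 members followed under all alternatives in ChGENE against Ch gave 433 values, of which 0 reversed and 66 newly passed, and the 11 followed in ChGENE against ChHAYW gave 319, of which 0 reversed. Most were followed because of their small p in the same comparison, so the lack of reversals does not test stability. The 15 include Cyp1b1, whose values are those of background. Other members do turn: under spike-in scaling 21 of all 44 were negative in ChGENE against Ch, and 0 of 5 Cyp2d members.

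The replicate numbers did not pair the rats: same-numbered deviations correlated at a median of 0.02, −0.07 and −0.06 in the 3 comparisons, with 4, 2 and 2 of 8 pairs over 0.1. With the replicate number as a block 0 members passed in each comparison, and 4, 0 and 0 probes did. The array number and the shared slide of each diet limit the precision, and dim members such as Cyp1a1 are near background on most arrays.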
